A study of Mus musculus with 4 samples.

Results

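The NFAT transcription factors and the phosphatase calcineurin that activates them were examined in 4 Affymetrix arrays of follicular helper T (TFH) cells. The group holds 9 genes of the 18193 that the arrays measured: Nfatc1, Nfatc2, Nfatc3 and Nfat5 for the factors, Ppp3ca, Ppp3cb, Ppp3cc and Ppp3r1 for calcineurin, and Rcan1 for its feedback regulator. Members were chosen by symbol, as all probe sets annotated with exactly 1 of these symbols, which gave 33 of 45037 probe sets. A probe set is a group of short probes read together as 1 intensity, and each gene was represented by its brightest, with the others given beside it. Of the 4 arrays, 2 came from Rictor-null and 2 from WT TFH cells, sorted from spleen on day 8 of an infection with lymphocytic choriomeningitis virus (LCMV), strain Armstrong. Per the study's methods, Rictor-null mice carried a floxed Rictor gene with a Cre transgene driven by Cd4, which is active in CD4 and CD8 T cells alike, and WT mice were their floxed littermates without Cre, all infected as young adults of both sexes. Every sample pooled at least 5 mice according to the series description, while a figure legend of the study gives fewer mice of each genotype than this implies. Each array is labelled a biological replicate, so that p-values rest on 2 pools of mice per group. The main test, limma, takes the spread between pools in part from the other genes. Fewer cells of a type in a pool and less RNA per cell cannot be told apart.

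Rictor is the subunit that defines mTOR complex 2 (mTORC2), a kinase complex that acts on Akt and related kinases downstream of antigen and costimulatory receptors. The T cell receptor also raises calcium in the cytosol. Calcium, through calmodulin, activates calcineurin, which strips phosphates from NFATc1, NFATc2 and NFATc3 so that they enter the nucleus, and kinases of the GSK3, DYRK and casein kinase families return them to the cytosol. In T cells these factors switch on cytokine and co-receptor genes, mostly together with partners such as AP-1, and NFATc1 and NFATc2 are known to be needed for TFH cells and their expression of CXCR5. NFAT5 lacks the calcineurin docking region and answers to osmotic stress.

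The 4 arrays were alike in scale, with median intensities of 19.98 to 20.4, and correlated at 0.998 within each group and at 0.993 to 0.994 between groups (Pearson's r across probe sets, log2 scale). All 16 measured genes of a list of CD4 T cell and TFH markers were brighter than the typical probe set, whose median intensity is 20.1, among them Cd3d, Cd4, Cxcr5 and Icos, while 11 of the 16 were called lower in Rictor-null TFH cells. The brightest of 5 Rictor probe sets read 267 and 279 in the Rictor-null arrays against 334 and 303 in the WT arrays (log2 fold change -0.21, adjusted p = 0.0366 from limma over genes and 0.0868 over probe sets), and the other 4, at -0.03 to 0.11, were not called. Not given in the sources used here is which Rictor exons they read, so that they do not check the deletion. In a separate measurement, the study reports no detectable Rictor mRNA in sorted Rictor-null TFH and TH1 cells.

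Of the 9 genes, 4 were lower and 1 was higher in Rictor-null TFH cells at an adjusted p under 0.05, while 4 did not pass. Over all 18193 genes, 7.19% were called lower and 12.5% higher by the same rule (limma on log2 of intensity + 16, Benjamini-Hochberg adjustment over the genes). The falls were those of Nfatc1, Nfatc2, Ppp3r1 and Ppp3cb, and the rise was that of Ppp3cc. In 7 genes both Rictor-null arrays lay below both WT arrays, an order found in 24.9% of all genes, and in Ppp3ca and Ppp3cc both lay above, as in 30.6% of all genes. The median log2 fold change was -0.17 over the 9 genes and 0.0068 over all genes. Since 16 is added before the logarithm, fold changes of dim genes are understated on this scale.

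**Figure D1:**
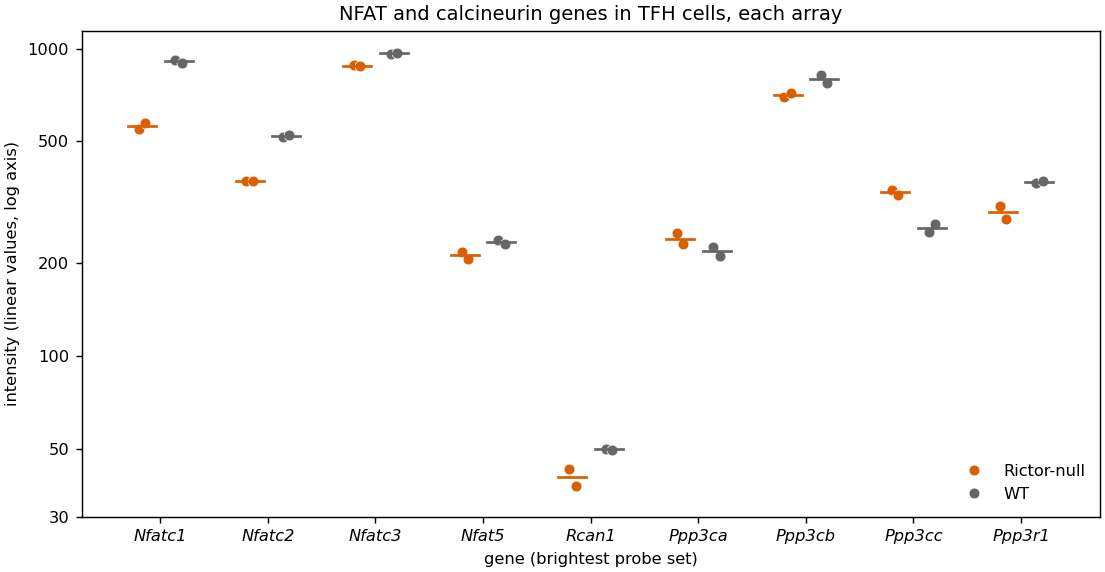
Intensity of the brightest probe set of each of the 9 genes (y axis, log scale) in Rictor-null (orange, left) and WT (grey, right) TFH cells, where points are single arrays with a bar at the mean of both. The gap is widest for Nfatc1, at 548 and 573 in Rictor-null against 918 and 899 in WT, and Ppp3ca and Ppp3cc are the genes whose orange points lie above the grey ones. Levels of different probe sets are not comparable with each other.

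Nfatc1, which encodes the NFAT factor whose own gene is induced by NFAT in activated lymphocytes, showed the largest difference of the group. Its brightest probe set (1417621_at) read 548 and 573 in Rictor-null TFH cells, against 918 and 899 in WT TFH cells. The Rictor-null mean was 61.7% of the WT mean, and the groups did not overlap. On the log2 scale the difference was -0.68 (standard error 0.05, 95% interval -0.79 to -0.57, adjusted p = 2.49e-06 from limma). This was the 38th most negative value of the 18193 genes. The other 4 probe sets of Nfatc1 were lower too. The second brightest read 526 and 550 in Rictor-null against 717 and 734 in WT TFH cells, and the third (1425761_a_at) read 249 and 296 in Rictor-null against 457 and 487 in WT. The dimmest were at 189 and 193 in Rictor-null against 240 and 262 in WT, and at 125 and 120 in Rictor-null against 178 and 145 in WT. In all 5 the arrays of the groups did not overlap, and all 5 were called lower in the fit over all probe sets (log2 fold changes -0.76 to -0.36, adjusted p-values 6.38e-05 to 0.033 from limma), where 4.63% of probe sets were called lower and 6.38% higher. The third probe set fell to 57.7% of its WT mean and the fourth to 76.1%. Leaving out WT replicate 1 or WT replicate 2 kept all 5 below 0 but left 1 of the 5 called, the brightest, and leaving out Rictor-null replicate 1 or 2 left 3 or 4 called. Whether the probe sets, which may read different transcripts of the gene, differ in their change was not tested.

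Nfatc2 encodes NFATc2, the factor present in resting T cells before stimulation. Its brightest probe set (1439205_at) read 372 and 372 in Rictor-null TFH cells and 514 and 523 in WT TFH cells. The Rictor-null arrays agreed to within 1 unit and stood at 71.7% of the WT mean (log2 fold change -0.46 with a standard error of 0.05, adjusted p = 5.68e-05 from limma). The 5 further Nfatc2 probe sets were far dimmer, between 6.12 and 61.5 on every array, and none was called. The brightest of these read 54.5 and 52.9 in Rictor-null against 59.5 and 61.5 in WT TFH cells, apart in the same direction, with a log2 fold change of -0.13 (95% interval -0.31 to 0.04). With the mean of all 6 probe sets in place of the brightest, the log2 fold change of Nfatc2 was -0.15 and no longer passed (adjusted p = 0.117 from limma), so that the call rests on a single probe set.

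The upstream Nfatc2 promoter is printed here as an example. It holds 3 copies of the core that NFAT proteins bind, GGAAA read on either strand, in capitals below (TTTCC is the same core on the other strand, and the 2 forms cannot overlap). Of other genes called lower, the promoter of Ppp3cb held 4 cores and that of Ppp3r1 0. The printed Nfatc2 promoter runs from 250 bases before to 50 bases after the start of RefSeq's transcript, chr2:168601608-168601907 of GRCm38.p6, minus strand.
Nfatc2, upstream start: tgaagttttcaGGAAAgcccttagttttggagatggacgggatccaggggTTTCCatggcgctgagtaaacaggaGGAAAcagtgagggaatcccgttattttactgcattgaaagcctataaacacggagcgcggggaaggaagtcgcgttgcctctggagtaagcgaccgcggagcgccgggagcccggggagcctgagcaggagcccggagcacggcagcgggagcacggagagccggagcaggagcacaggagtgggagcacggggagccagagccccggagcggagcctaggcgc
Of the 32851 promoters of that length in the same RefSeq table, 61.3% held at least 1 such core and 9.42% at least 3. The second Nfatc2 promoter held 1. A match of these letters is a description and not a binding site.

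Nfatc3 and Nfat5 did not pass the test. Nfatc3, whose protein is also a calcineurin substrate, read 882 and 875 in Rictor-null TFH cells, against 961 and 968 in WT TFH cells. The groups lay apart, with the Rictor-null mean at 91.1% of the WT mean (log2 fold change -0.13, 95% interval -0.23 to -0.03), and the adjusted p was 0.0621 from limma. Its other probe set read 457 and 434 in Rictor-null against 468 and 455 in WT and overlapped between the groups. Nfat5 was at 218 and 206 in Rictor-null against 238 and 231 in WT TFH cells (log2 fold change -0.13, 95% interval -0.27 to 0.0024, adjusted p = 0.175 from limma). Of its 5 other probe sets 3 were below the median intensity of 20.1, and none was called. Nfatc4, listed with the other regulators, read 30.7 and 32.0 in Rictor-null and 30.8 and 34.5 in WT TFH cells, which overlap.

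Rcan1, known as regulator of calcineurin 1, is itself induced by calcineurin and NFAT through an internal promoter and then restrains calcineurin, so that it is used as a readout of the pathway. Its signal was low, at 43.0 and 37.7 in Rictor-null TFH cells and 49.8 and 49.5 in WT TFH cells. Both Rictor-null arrays were below the WT arrays, and the log2 fold change was -0.22 (standard error 0.09, 95% interval -0.41 to -0.03, adjusted p = 0.0973 from limma). It passed with dim genes left out (adjusted p = 0.039) and with limma's moderation made independent of signal (adjusted p = 0.046). The second probe set was below 6 on all 4 arrays, dimmer than the median probe set.

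The 2 Rcan1 promoters are printed to show how they differ in the NFAT core, with the core in capitals as above. Both lie on the minus strand of chromosome 16 of GRCm38.p6, the downstream start at chr16:92400029-92400328 and the upstream start at chr16:92466120-92466419.
Rcan1, downstream start: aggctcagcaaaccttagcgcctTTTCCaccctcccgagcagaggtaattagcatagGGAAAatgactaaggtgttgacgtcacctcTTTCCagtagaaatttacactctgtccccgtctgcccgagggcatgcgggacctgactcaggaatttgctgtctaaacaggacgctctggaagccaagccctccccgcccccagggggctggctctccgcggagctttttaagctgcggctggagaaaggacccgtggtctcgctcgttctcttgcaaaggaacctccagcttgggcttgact
Rcan1, upstream start: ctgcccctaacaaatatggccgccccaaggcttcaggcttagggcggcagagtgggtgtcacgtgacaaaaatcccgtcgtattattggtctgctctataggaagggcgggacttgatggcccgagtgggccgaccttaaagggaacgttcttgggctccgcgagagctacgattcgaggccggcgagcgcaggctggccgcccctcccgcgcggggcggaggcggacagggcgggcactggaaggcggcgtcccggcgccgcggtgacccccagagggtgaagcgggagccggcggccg
The downstream promoter held 3 cores, 1 AP-1 motif (TGACTCA, in 5.2% of all promoters) and 1 CRE (TGACGTCA, in 1.79%), each searched on both strands, while the upstream promoter held none of the 3 motifs. From which start the Rcan1 signal on the arrays comes was not tested. Among the other members with a promoter in the table, Ppp3cb held 4 cores, Nfat5 2, Nfatc3 1 in 1 of 2 promoters, and Ppp3r1 0. No promoter of Nfatc1, Ppp3ca or Ppp3cc is given here.

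The catalytic subunits of calcineurin went in different directions. Ppp3cc, which encodes the gamma isoform, read 348 and 335 in Rictor-null TFH cells, against 254 and 269 in WT TFH cells. The Rictor-null mean was 131% of the WT mean, with a log2 fold change of 0.37 (standard error 0.06, 95% interval 0.24 to 0.49, adjusted p = 0.00080 from limma). Its second probe set read 132 and 147 in Rictor-null against 127 and 120 in WT, apart in the same direction but not called (log2 fold change 0.15, 95% interval -0.02 to 0.32). Without WT replicate 1 the adjusted p of Ppp3cc was 0.0504.

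Ppp3ca, which encodes the alpha isoform, was at 251 and 231 in Rictor-null and 226 and 212 in WT TFH cells by its brightest probe set. The groups did not overlap, but their nearest arrays lay closer together than the arrays within a group, and the gene did not pass (log2 fold change 0.13, 95% interval -0.02 to 0.27, adjusted p = 0.227 from limma). Its second probe set differed more, at 144 and 131 in Rictor-null against 94.8 and 107 in WT TFH cells, and was called higher (log2 fold change 0.39, adjusted p = 0.0141 from limma over all probe sets). The third read 60.0 and 65.4 in Rictor-null against 50.8 and 52.3 in WT. All 3 probe sets were higher in both Rictor-null arrays than in either WT array, and with their mean the gene passed (log2 fold change 0.25, adjusted p = 0.0156 from limma).

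Ppp3cb, which encodes the beta isoform whose loss in mice reduces T cell numbers, read 697 and 719 in Rictor-null TFH cells and 820 and 775 in WT TFH cells. Its log2 fold change was -0.17 (standard error 0.05, 95% interval -0.28 to -0.06, adjusted p = 0.0337 from limma). Of the 5 called genes it lost its call most often, which ended in 7 of the 15 alternatives, among them adjustment over all probe sets (adjusted p = 0.0774) and the fits without Rictor-null replicate 1 (adjusted p = 0.131), without WT replicate 1 (adjusted p = 0.262) and without WT replicate 2 (adjusted p = 0.103). Its next 2 probe sets were lower as well, at 250 and 247 in Rictor-null against 276 and 278 in WT, and at 150 and 190 in Rictor-null against 211 and 201 in WT, and neither was called. The fourth read 40.9 and 38.1 in Rictor-null against 35.5 and 38.3 in WT, overlapping and slightly above 0 (log2 fold change 0.07), and with the mean of all 5 the gene did not pass (log2 fold change -0.12, adjusted p = 0.17 from limma).

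Ppp3r1, which encodes calcineurin B, the calcium-binding regulatory subunit that each catalytic subunit needs, read 307 and 279 in Rictor-null TFH cells, against 365 and 372 in WT TFH cells. It stood at 79.6% of the WT mean, with a log2 fold change of -0.32 (standard error 0.06, 95% interval -0.45 to -0.18, adjusted p = 0.00273 from limma). The dimmer probe set, at 119 and 102 in Rictor-null against 145 and 111 in WT, overlapped between the groups. The call ended without WT replicate 1 (adjusted p = 0.0701), without WT replicate 2 (adjusted p = 0.0893) and with the mean of both probe sets (log2 fold change -0.25, adjusted p = 0.0647). Ppp3r2, the regulatory subunit known from testis, was at 9.91 to 11.2 on every array, dimmer than the median probe set.

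**Figure D2:**
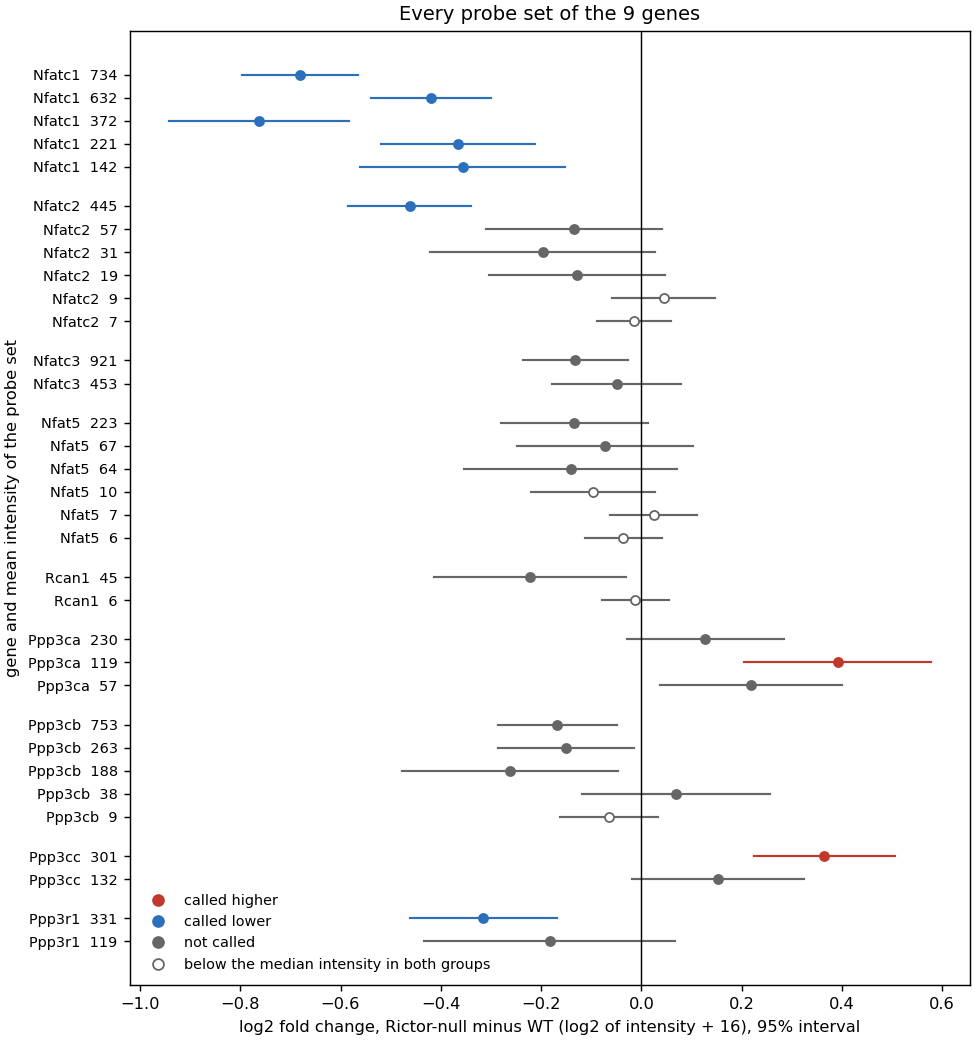
Log2 fold change of Rictor-null against WT TFH cells (x axis, log2 of intensity + 16) with its 95% interval for all 33 probe sets of the 9 genes, each named by gene and mean intensity. The 5 probe sets of Nfatc1 all lie left of 0, the 5 probe sets of Ppp3ca and Ppp3cc all lie right of it, and the open circles near 0 are the 7 probe sets with both group means below the median intensity.

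Over all 33 probe sets, 7 were called lower and 2 higher, against 4.63% and 6.38% of all probe sets. The 7 were the 5 of Nfatc1 and the brightest of Nfatc2 and of Ppp3r1, and the 2 were the second of Ppp3ca and the brightest of Ppp3cc. In 7 of the 33 both group means were below the median intensity, where a difference would be hard to detect.

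Upstream of calcineurin, the genes of calcium handling that passed were lower in Rictor-null TFH cells. Of 17 measured genes of the phospholipase, calcium store and plasma membrane channel list, 7 were called lower and 0 higher by limma (at an unadjusted p under 0.05, 9 were lower and 2 higher). Of all genes, 7.19% were called lower and 12.5% higher. The median of the 17 was -0.15 on the log2 scale, against 0.0068 over all genes. The potassium channel gene Kcnn4, whose channel keeps up the driving force for calcium, was at 1612 and 1573 in Rictor-null against 2118 and 2094 in WT TFH cells (log2 fold change -0.40). Itpr2, which encodes a calcium release channel of the endoplasmic reticulum, read 334 and 329 in Rictor-null against 454 and 480 in WT. Plcg1, which encodes the phospholipase that makes the messenger opening that channel, read 589 and 559 in Rictor-null against 732 and 748 in WT. Stim2, a sensor of store calcium, read 266 and 267 in Rictor-null against 348 and 361 in WT, and the groups were apart in all 4 genes. With the mean of its probe sets the log2 fold change of Plcg1 was -0.12 and did not pass (adjusted p = 0.2 from limma), and that of Itpr2 was -0.24 (adjusted p = 0.0232). The 7 are not all genes of calcium entry, as they include the calcium pump gene Atp2a2, at 875 and 882 in Rictor-null against 1062 and 1086 in WT. Orai1, the pore of the store-operated channel, read 335 and 347 in Rictor-null and 334 and 366 in WT TFH cells, which overlap. Stim1 was at a log2 fold change of -0.19 without passing (adjusted p = 0.0651 from limma), and Orai2 was at 0.15 without passing (adjusted p = 0.116 from limma).

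Among regulators and counteracting kinases, some genes passed in each direction, where 7.19% of all genes were called lower and 12.5% higher. Of 14 measured genes for other subunits, anchors and inhibitors of calcineurin, 3 were called lower and 1 higher (median log2 fold change -0.02), and 6 of the 14 lay below the median intensity in both groups. Akap13, which encodes an anchoring protein for kinases, was at 1737 and 1757 in Rictor-null against 2111 and 2089 in WT TFH cells. Fkbp1a, whose product binds the calcineurin inhibitor tacrolimus, was at 1470 and 1622 in Rictor-null against 1782 and 1743 in WT, and Cabin1, a calcineurin-binding inhibitor, was at a log2 fold change of -0.20 (adjusted p = 0.05 from limma, just under the threshold). The higher gene was Homer3, at 14.9 and 13.9 in Rictor-null against 9.73 and 11.4 in WT, a dim signal. Of 15 NFAT kinases, 3 were called lower and 1 higher (median log2 fold change -0.11), and at an unadjusted p under 0.05 7 were lower and 1 higher. The lower ones were the casein kinase genes Csnk1d, Csnk1a1 and Csnk1g2, with log2 fold changes of -0.36 to -0.32, and the higher one was Mapk8, at 125 and 116 in Rictor-null against 99.9 and 99.6 in WT TFH cells. The calls of Homer3 and Mapk8 ended when any single array was left out. That of Fkbp1a ended without either WT array or Rictor-null replicate 1, and that of Cabin1 without either WT array or Rictor-null replicate 2. The call of Csnk1a1 ended without WT replicate 1 and that of Csnk1g2 without WT replicate 2. Mapk8 also fell short with quantile normalization (adjusted p = 0.0523 from limma). With the mean of all probe sets Akap13 (adjusted p = 0.0645 from limma), Fkbp1a (0.0864), Cabin1 (0.414) and Mapk8 (0.408) did not pass. In that setting the log2 fold changes of Cabin1, Mapk8 and Csnk1d were -0.08, 0.08 and -0.20. Gsk3b read 468 and 468 in Rictor-null against 520 and 523 in WT and did not pass (adjusted p = 0.056 from limma).

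Against 7.19% lower and 12.5% higher over all genes, 2 of 11 genes for calcineurin substrates other than NFAT were called lower and 0 higher by limma. At an unadjusted p under 0.05, 2 were lower and 1 higher, and the median log2 fold change of the 11 was -0.03. The lower genes were Foxo1, a transcription factor that Akt keeps out of the nucleus, at 350 and 336 in Rictor-null against 559 and 548 in WT TFH cells (log2 fold change -0.67), and the CREB coactivator gene Crtc3, at 335 and 321 in Rictor-null against 393 and 406 in WT. The call of Crtc3 ended without WT replicate 1 (adjusted p = 0.0612 from limma) and without WT replicate 2 (adjusted p = 0.0936), and with the mean of its probe sets the log2 fold change of Foxo1 was -0.40.

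**Figure D3:**
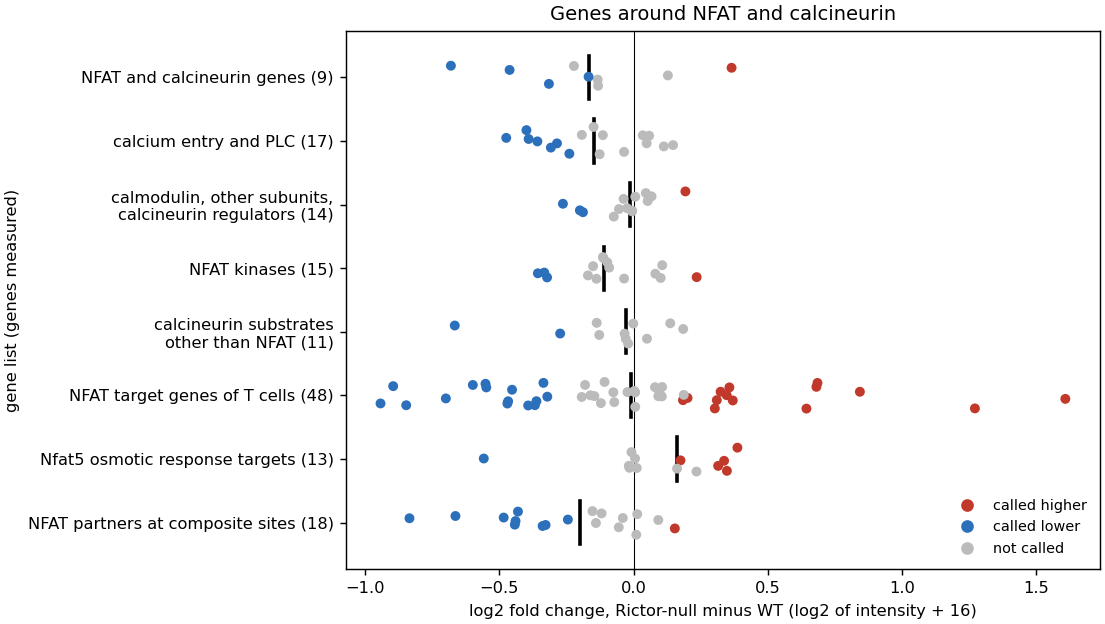
Log2 fold change of Rictor-null against WT TFH cells (x axis, log2 of intensity + 16) for each gene of the 9 and of 7 related lists, 1 row per list with its number of measured genes. Black bars are medians, from -0.20 for NFAT partners to 0.16 for Nfat5 targets, and the 48 NFAT target genes spread to both sides, with 15 called lower and 14 higher.

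Genes known as NFAT targets in T cells went both ways. Of 48 measured, 15 were called lower and 14 higher, against 7.19% and 12.5% of all genes. The median log2 fold change of the 48 was -0.01. Of the 48, 6 also stand in the list of TFH markers, 4 in that of TH1 markers and 4 in that of regulatory T cell markers. The smallest p-values belonged to Tox2, at 1840 and 1767 in Rictor-null against 3313 and 3201 in WT TFH cells, and to the cytokine gene Il21, at 387 and 383 in Rictor-null against 746 and 715 in WT. Next came the chemokine genes Ccl4, higher at 319 and 276 in Rictor-null against 107 and 120 in WT, and Ccl3, higher at 143 and 115 in Rictor-null against 28.5 and 34.4 in WT. With the mean of all probe sets the log2 fold changes were -0.53 for Tox2, against -0.85 as reported, and -0.50 for Il21, against -0.90, both still called. Of the factors that share composite sites with NFAT, 9 of 18 were called lower and 1 was higher (median log2 fold change -0.20). Maf, a factor of TFH cells, read 864 and 814 in Rictor-null against 1472 and 1546 in WT, and Ets1 1932 and 2104 in Rictor-null against 2717 and 2775 in WT. The AP-1 genes Fos and Junb were at log2 fold changes of -0.66 and -0.48, and the higher gene was Batf, at 0.15.

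For Nfat5, the osmotic target genes were mostly higher or not called. Of 13 measured, 5 were called higher and 1 lower (median log2 fold change 0.16), against 12.5% and 7.19% of all genes. The lower gene was Slc5a3, which encodes the transporter of the osmolyte inositol, at 210.0 and 214 in Rictor-null against 314 and 325 in WT TFH cells. The kinase gene Sgk1 read 565 and 559 in Rictor-null against 431 and 422 in WT, the calcium-binding protein gene S100a4 8388 and 8494 in Rictor-null against 7512 and 7442 in WT, and the heat shock gene Hspa1b 121 and 111 in Rictor-null against 86.5 and 88.8 in WT. Slc6a6, which encodes the taurine transporter, read 605 and 596 in Rictor-null against 638 and 578 in WT TFH cells, which overlap. With the mean of its probe sets Slc5a3 fell short of the threshold at -0.26 on the log2 scale (adjusted p = 0.0583 from limma). The calls of S100a4 and Hspa1b ended without either WT array (adjusted p-values 0.0545 to 0.0909), and that of Hspa1b also without Rictor-null replicate 1 (0.0581).

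The genes most like the called members over the 4 arrays were found by the root mean square distance between log2 values centred per gene, among 6472 other genes with a mean intensity of at least 100. With 4 arrays this likeness is a description. Nearest to Nfatc1 were B4galnt4 (distance 0.0082), Fos (0.0126) and Rap2b (0.0227), and nearest to Nfatc2 were Snrk (0.0111), Tsc22d4 (0.0152) and Fosb (0.0158). The 3 nearest were Fam214a, Hcls1 and Hibadh for Ppp3cb, Mxd4, Lemd3 and Ehmt2 for Ppp3r1, and Rps6, Fam162a and Pigx for Ppp3cc, at distances of 0.0023 to 0.0116.

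Markers of TFH cells and of other cells moved in part with these genes. Over all genes, 7.19% were called lower and 12.5% higher. Of 16 CD4 T cell and TFH markers, 11 were called lower and 0 higher by limma (at an unadjusted p under 0.05, 11 were lower and 0 higher), and their median was -0.30 on the log2 scale. Their summed intensity was 25497 and 25630 in Rictor-null against 29650 and 29204 in WT. Bcl6, Pdcd1, Cd28, Cd3e and Cd4 were among those that fell. The 5 not called were Cd3d, Cd3g, Icos, Sh2d1a and Cd200, with log2 fold changes of 0.0033 to 0.11. For the sort of the array samples the methods refer to earlier work. For another assay of the study, cells bearing CD8, B220, CD11c, Gr-1 or NK1.1 were depleted and TFH cells were identified by CD4, CD44, GITR, CD25 and CXCR5, steps that are meant to remove B cells, myeloid cells, NK cells, CD8 T cells and, by GITR, CD25 and CXCR5, regulatory T cells and TH1 cells. Of 10 measured TH1 markers, 9 were called higher. The summed intensity of the 10 was 7636 and 8821 in Rictor-null against 6174 and 6082 in WT TFH cells. Cxcr6 read 957 and 1790 in Rictor-null against 845 and 808 in WT. Tbx21, which was not called, read 611 and 619 in Rictor-null against 645 and 695 in WT. Selplg and Gzmb were the brightest of the 10. Of 17 myeloid markers, 7 were called higher and 1 lower, with sums of 1628 and 1489 in Rictor-null against 1154 and 1104 in WT. Cst3 and Cd68 were the brightest, of which Cst3 was called higher and Cd68 was not called. Itgax, at 145 and 142 in Rictor-null against 54.4 and 45.6 in WT, had the largest log2 fold change of the 17 (1.28). The lower gene was Cebpa (log2 fold change -0.58). Of 10 NK and CD8 T cell markers, 4 were called higher and 2 lower, with sums of 925 and 892 in Rictor-null against 652 and 641 in WT, and Eomes and Klrc1 were the brightest. The sums of 19 B and plasma cell markers, led by Ighm and Xbp1, overlapped between the groups at 4718 and 4883 in Rictor-null against 4878 and 4774 in WT, with 6 genes called higher and 2 lower. Ighm makes up most of that sum. Below it, the plasma cell genes Jchain, at 378 and 353 in Rictor-null against 126 and 113 in WT, and Mzb1, at 102 and 90.8 in Rictor-null against 43.1 and 46.6 in WT, were higher. So were the MHC class II gene H2-Aa, at 57.9 and 70.7 in Rictor-null against 30.6 and 29.8 in WT, and the B cell gene Cd79b (log2 fold change 0.40). The 2 lower genes, both brighter than Jchain, were Cd22 (log2 fold change -0.82) and Xbp1 (log2 fold change -0.19). Pax5, at 16.9 and 16.6 in Rictor-null against 13.3 and 11.1 in WT, and the MHC class II gene H2-Ab1 were called higher at a dim signal. The called markers of this list thus went in both directions. Of the 19, 11 lay below the median intensity in both groups, where a difference would be hard to detect. Among these dim markers were the B cell genes Ms4a1 and Cd79a, which were not called. The sums of 9 regulatory T cell markers, led by Ikzf2 and Tnfrsf18, were 3518 and 3526 in Rictor-null against 3645 and 3633 in WT, with 3 called higher and 1 lower. No marker is at 0, as the lowest value of any array is 3.05, and the part of these cells in the differences above was not tested.

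**Figure D4:**
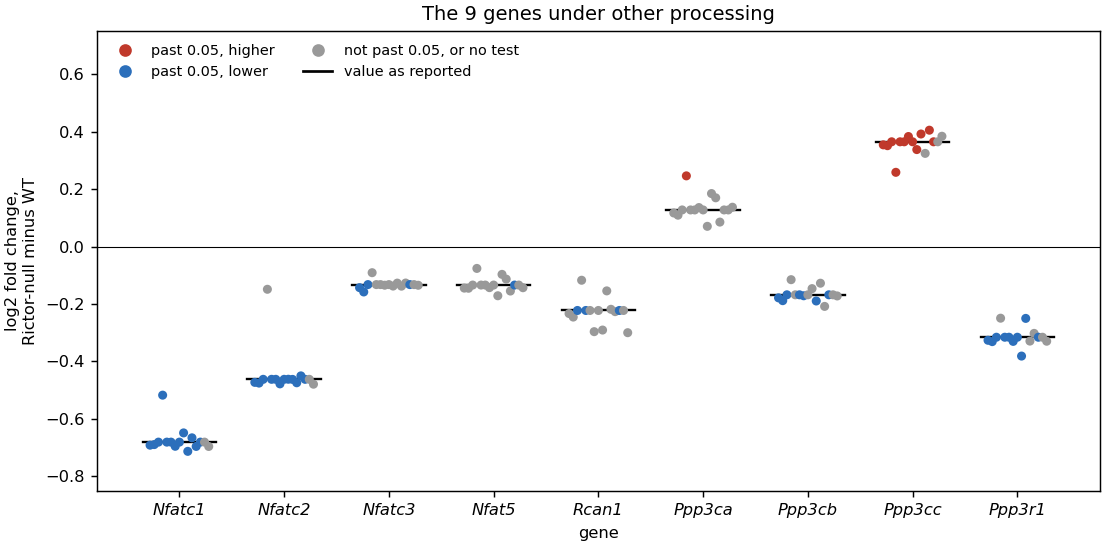
Log2 fold change of Rictor-null against WT TFH cells (y axis) for the 9 genes under 15 other ways of processing (points) and as reported (black bars). Red and blue points passed a p of 0.05 in their setting, after adjustment except in the unadjusted t-test, and grey points did not or had no test. No gene crosses 0, Nfatc1 ranges from -0.71 to -0.52 and Nfatc2 from -0.48 to -0.15.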

How the data were processed

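Expression was measured on 4 one-colour Affymetrix arrays. The authors deposited intensities on a linear scale for 45037 probe sets, scaled between arrays before deposit. MAS5 and RMA are named in their processing notes, with no version and no role. The platform annotation gave 1 symbol to 34945 probe sets, several to 932 and none to 9160, and only the first kind named a gene. Entrez numbers of 34741 matched RefSeq (GRCm38.p6), which changed no symbol.

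Values became log2(intensity + 16), and the probe set with the highest mean over the arrays stood for its gene (18193 genes, 9010 with more than 1). Rictor-null and WT arrays were set against each other in limma 3.58.1 (R 4.3.3; lmFit, then eBayes with a signal-dependent trend). P-values were adjusted by Benjamini-Hochberg over all genes, or over all probe sets, at a threshold of 0.05; intervals are not adjusted. The fit was tested on simulated data with independent normal noise of the spread that limma estimated. This cannot show how the fit behaves on real pools of mice. The number of arrays limits the precision.

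Named genes are the 9 members, up to 4 called genes per pathway list with the smallest p, the 2 brightest markers of each other cell type, the 3 genes nearest to each called member, and Rictor. Other genes were named after their values were seen. Members and lists were chosen with earlier results of these data known. Alternatives covered scaling (by medians or quantiles), omission of dim genes, the mean of all probe sets, eBayes with no trend, a replicate block, omission of each array, a pseudocount of 1, adjustment over probe sets, the methods' t-test, and linear ratios.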

Additional observations from a re-analysis of the deposited data

How the results depend on the processing

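No log2 fold change of the 9 genes, or of the 26 called genes that the naming rule took from the pathway lists, changed sign under the alternatives run, and other genes named were not run through them. Against 4 genes of the 9 lower and 1 higher as reported, 1 was lower and 2 were higher with the mean of all probe sets, where the count of all genes called lower was 842 in place of 1308. By the methods' t-test, 7 were lower and 1 higher without adjustment, with 2231 of all genes lower, and after Benjamini-Hochberg adjustment 0 were lower and 0 higher, with 3 genes lower and 3 higher over all genes. Leaving out 1 array gave 2 to 4 of the 9 lower and 0 to 1 higher, 457 to 1048 of all genes lower and 930 to 2000 higher, and 1 to 6 of the 33 probe sets lower and 0 to 2 higher. The low ends came without WT replicate 1 (457 lower and 1005 higher) and without WT replicate 2 (494 lower and 930 higher), and why the WT arrays weigh more was not tested. In such fits the lone array is assumed to vary like the other group. Nfatc3 passed with median centring (adjusted p = 0.0389 from limma), quantile normalization (adjusted p = 0.0256) and without dim genes (adjusted p = 0.0403). With the replicate block, 4 of the 9 genes were lower and 1 higher, and 1382 of all genes lower and 2366 higher. Deviations of same-numbered arrays from their group means correlated at -0.03 across genes, and at -0.09 across genes with a mean intensity of at least 100. These values cannot show whether same-numbered arrays were handled together.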
